A study of Mus musculus with 2 samples.

Results

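The genes described here are those of fibroblast growth factor (FGF) signaling. They are 22 Fgf genes, the receptor genes Fgfr1 to Fgfr4 and Fgfrl1, the adaptor genes Frs2 and Frs3, and 12 feedback and target genes. Of the 12, 9 are Sprouty, Spred and Dusp genes for inhibitors of signaling through the kinase ERK, and the others are the transcription factor genes Etv1, Etv4 and Etv5. Not each of the 12 is an established ERK-induced gene. All these genes were chosen by name, as the pathway's ligands, receptors, adaptors, feedback inhibitors and ETV targets. A probe was counted when the array's own gene name was one of them. This gave 41 of 29875 genes and 66 of 39429 biological probes. Ureters of wildtype NMRI embryos at E12.5 had been explanted, pooled and cultured for 18 h. One group received 10 µM BIO, an indirubin compound that inhibits the kinase GSK3 and so activates WNT signaling through beta-catenin, and the other received DMSO at 2 parts per 1000 parts of medium as control. Strain, genotype, stage and culture time were the same in both groups, and the sex of the embryos was not determined. The question was which genes of the early ureter respond when BIO is given to the whole explant, epithelium and mesenchyme together. The ratios do not show in which of these tissues WNT signaling rose.

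FGF proteins are signals that bind receptor tyrosine kinases on the cell surface together with heparan sulfate, and the adaptor FRS2 links the active receptor to RAS and ERK. Active ERK induces the Etv1, Etv4 and Etv5 genes and, with them, inhibitors of the same cascade, such as the Sprouty proteins and the ERK phosphatase DUSP6, whose transcripts are widely used as a readout of FGF activity. In the developing urinary tract, FGF7 and FGF10 are made by mesenchyme and act on the epithelium through an epithelial form of FGFR2.

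Each of 2 arrays carried control RNA in one dye and BIO RNA in the other, with the dyes exchanged between the arrays, so that every gene has 2 log2 ratios of BIO over control. The share of biological spots well above background ranged from 70.1% to 80.9% over the 4 channels, and 0 spots were saturated. In all, 21574 genes were tested against a log2 ratio of 0 with limma, and 5154 of them (23.9%) passed an adjusted p of 0.05, of which 1970 (9.13% of those tested) rose and 3184 (14.8%) fell. The median log2 ratio of all genes tested was -0.0083. As a check of the tissue, the 12 markers of ureteric mesenchyme, among them Tbx18, Tshz3 and Bmp4, and the 12 epithelial markers, among them Gata3 and Krt8, were all well above background. RNA came from whole explants, so fewer cells of a type and less RNA per cell cannot be told apart.

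Of the 41 genes, 36 were measured well enough to be tested, and 19 of these changed with BIO, beside the 23.9% of all genes. The calls were 12 falls, beside 14.8% of all genes, and 7 rises, beside 9.13%. When each array was centered on its median instead of normalized by loess, the split was 10 falls, beside 8.99% of all genes, and 2 rises, beside 3.83%, so both directions were called less often over the whole array. Of the 12 feedback inhibitor and ETV genes, 8 fell and 1 rose, with a median log2 ratio of -0.71, whereas the 13 secreted ligands tested held 3 falls and 2 rises with a median of -0.049. Among the 4 intracellular Fgf genes 3 rose and 0 fell on the brightest probe, though a dimmer Fgf13 probe fell. Among the 5 receptor genes 1 fell. The sign was equal on the 2 arrays for all 19 changed genes, as for all 5154 genes called, and 10 of the 12 falls were larger on array 1, which held for 70.8% of all genes that fell. The median over all 36 genes tested was -0.059, and this value hides both tails. Where control and BIO signals of a called gene are said below not to overlap, this describes the values and adds no support to the call.

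**Figure D1:**
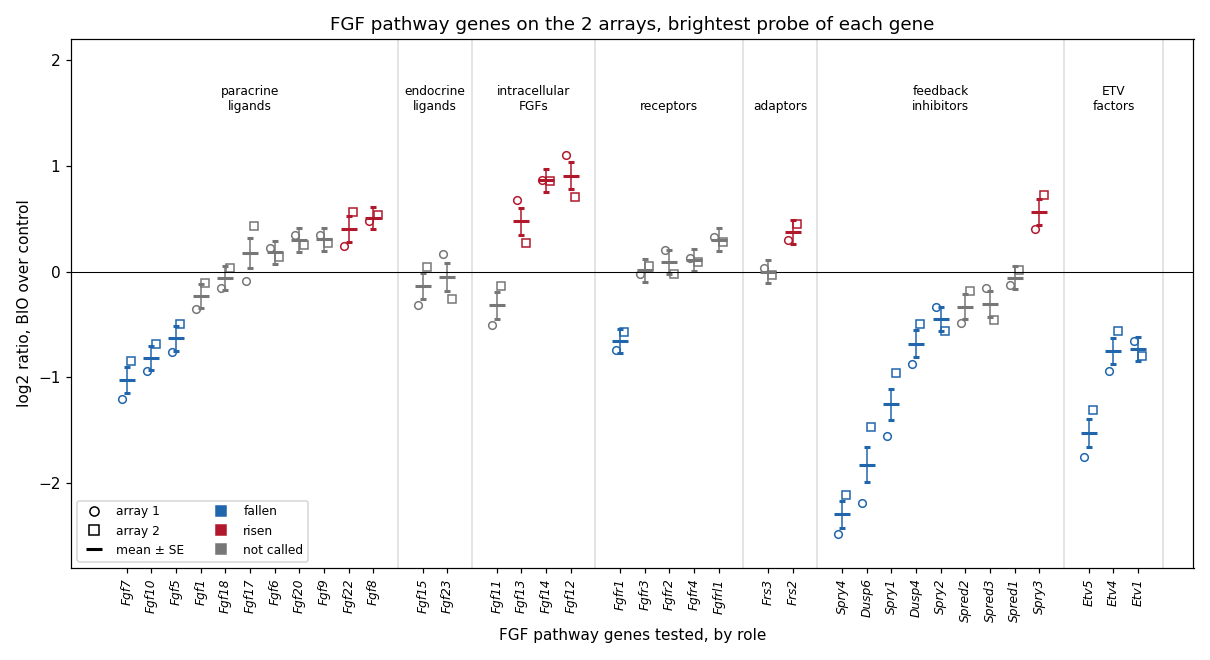
Log2 ratio of BIO over control for the 36 tested genes, grouped by role, with array 1 as circles, array 2 as squares and the mean with its SE as a bar. The feedback inhibitors and ETV factors reach down to -2.30 for Spry4, while Fgf12 stands at the top with 0.91.

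The feedback inhibitors held the deepest falls. Spry4, a Sprouty protein that blocks receptor signaling upstream of ERK, gave a processed signal (the scanner software's background-subtracted and dye-normalized intensity) that was 251 in control and 21.5 in BIO on array 1, and 335 and 59.0 on array 2. Both BIO values lay far below both control values. The log2 ratios were -2.48 and -2.11 with a mean of -2.30 ± 0.13 (SE, adjusted p = 3.51e-05), a 4.91-fold fall and the 35th strongest among the 21574 genes. An offset of 50 in the background correction pulls ratios of dim probes toward 0, and the processed signals without it gave -3.55 and -2.51. Dusp6 encodes the cytoplasmic phosphatase that removes the activating phosphates from ERK. Its processed signal was 6249.6 in control and 1379.8 in BIO on array 1, and 6887 and 2519.6 on array 2. The fall was seen on both arrays without overlap, and it was larger on array 1, at -2.19 and -1.47, with a mean of -1.83 ± 0.17 (SE, adjusted p = 2.33e-04) or 3.55-fold. Spry1, the Sprouty gene best known for restraining ureteric budding, gave processed signals of 2966 in control and 1018 in BIO on array 1, and 3292 and 1725 on array 2. Its log2 ratios of -1.55 and -0.96 averaged -1.26 ± 0.15 (SE, adjusted p = 7.91e-04), again with all BIO signals below all control signals. Dusp6 ranked 121 and Spry1 ranked 355 among all falls.

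The other Sprouty and Dusp genes moved less, and not all one way. Dusp4, a nuclear MAP kinase phosphatase, had processed signals of 87.4 in control and 40.9 in BIO on array 1, and 90.1 and 58.2 on array 2. It fell by 0.68 on the log2 scale, from -0.87 and -0.49 (SE 0.13, adjusted p = 0.00646). For Spry2 the processed signal was 236 in control and 201 in BIO on array 1, and 256 and 173 on array 2, a small shift in which the lowest control value still exceeded the highest BIO value. Its log2 ratios were -0.33 and -0.56 with a mean of -0.45 ± 0.11 (SE, adjusted p = 0.0260). Spry3, a less studied member of the same family, went the other way, and its processed signal was 37.3 in control and 61.8 in BIO on array 1, and 50.5 and 106 on array 2. Both BIO values lay above both control values, and the log2 ratios of 0.40 and 0.72 averaged 0.56 ± 0.12 (SE, adjusted p = 0.0127). The Spred proteins restrain RAS activation by bringing neurofibromin to the membrane, and none of the 3 genes passed the test. The 95% intervals given for genes that did not pass are not adjusted for the number of genes tested. Spred1 gave log2 ratios of -0.13 and 0.014 with a mean of -0.056 (95% interval -0.31 to 0.20). Spred2 gave log2 ratios of -0.48 and -0.18 with a mean of -0.33 (95% interval -0.61 to -0.055). Spred3, which was well above background in BIO on only 1 array, gave log2 ratios of -0.15 and -0.46 with a mean of -0.31 (95% interval -0.58 to -0.031).

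All 3 Etv genes fell, and they encode the ETS factors that FGF and ERK are known to induce. The processed signal of Etv5 was 2068 in control and 601 in BIO on array 1, and 2003 and 815 on array 2. Its log2 ratios were -1.75 and -1.31, averaging -1.53 ± 0.13 (SE, adjusted p = 2.02e-04) or a 2.89-fold fall, and Etv5 ranked 205 among all falls. Etv4 signals of its brighter probe were 535 in control and 283 in BIO on array 1, and 657 and 453 on array 2. This probe fell by 0.75 on the log2 scale (adjusted p = 0.00418), from -0.94 and -0.56, and a second probe on the same transcript fell by 0.65 (adjusted p = 0.00416). Etv1 had processed signals of 3287 in control and 2107 in BIO on array 1, and 3567 and 2088 on array 2. Here array 2 gave the larger change, with -0.66 and -0.80 and a mean of -0.73 ± 0.11 (SE, adjusted p = 0.00253), and the second Etv1 probe fell by 0.71 (adjusted p = 0.00505). In each of the 3 genes the BIO signals lay below all control signals.

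**Figure D2:**
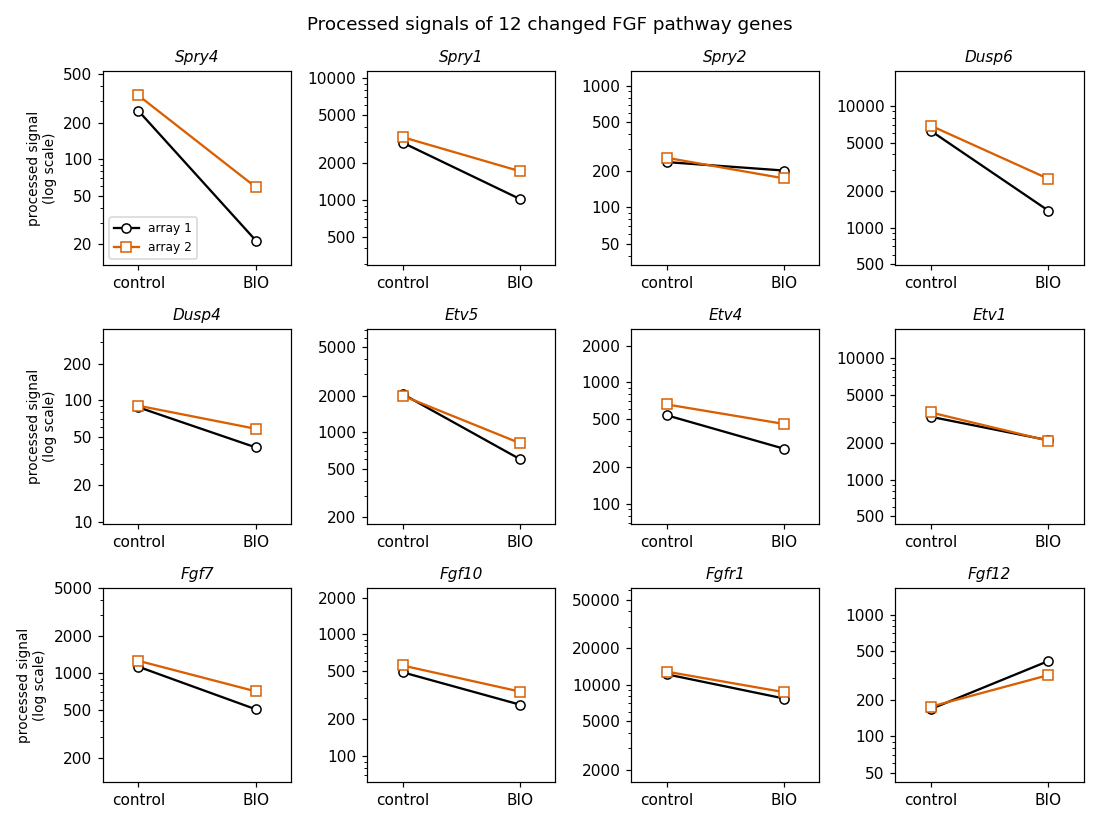
Processed signal (log axis spanning the same fold range in each panel) in control and BIO for 12 changed genes, one line per array. The 12 genes were picked from those called, so the separation of control and BIO points adds no support to the calls. The lines fall most steeply for Spry4 and Dusp6, and those of Fgf12 rise.

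The falls of Dusp6, Etv5 and Spry1 each rest on 1 probe of 60 bases, whose first 30 bases are given here 5′ to 3′ so that the transcript region read can be looked up. In the build of the array, mm9 (NCBI37), the Dusp6 probe lies at chr10:98729985-98730044 on the plus strand, the Etv5 probe at chr16:22381387-22381446 on the minus strand and the Spry1 probe at chr3:37543403-37543462 on the plus strand. Whether these positions are coding or untranslated was not analysed here.
Dusp6 probe 1: catttggtggatgcaacaggttgagaggaa
Etv5 probe 1: tgcaccctgccgagctgcgtatattctgta
Spry1 probe 1: ctcatgtctgaatataacatatcactactt

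Among the paracrine ligands, the 2 mesenchymal signals of the Fgf7 subfamily fell. Fgf7, also known as keratinocyte growth factor, gave a processed signal that was 1125 in control and 502 in BIO on array 1, and 1258 and 705 on array 2. Its log2 ratios were -1.20 and -0.84 with a mean of -1.02 ± 0.12 (SE, adjusted p = 8.90e-04), a 2.03-fold fall without overlap between the groups. Fgf10, which drives branching of many epithelia, had processed signals of 488 in control and 264 in BIO on array 1, and 555 and 338 on array 2. The log2 ratios of -0.94 and -0.69 averaged -0.82 ± 0.12 (SE, adjusted p = 0.00190), or 1.76-fold. Fgf22, the third tested gene of this subfamily, was dim, and its processed signal was 33.4 in control and 48.5 in BIO on array 1, and 46.0 and 85.7 on array 2. It rose by 0.40 on the log2 scale, from 0.24 and 0.57, with an adjusted p of 0.0456 that lies close to the threshold. The Fgf7 probe lies at chr2:125916134-125916193 and the Fgf10 probe at chr13:119580365-119580424, both on the plus strand, and their first 30 bases are given to identify the transcripts behind these falls.
Fgf7 probe 1: gctcttcccacaaataatcatgcttatttc
Fgf10 probe 1: acagcaaatagtgcagacgttggattctta

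Of the remaining paracrine ligands, Fgf5 fell and Fgf8 rose. Fgf5, known for ending the growth phase of hair follicles, had processed signals of 94.5 in control and 53.5 in BIO on array 1, and 111 and 69.5 on array 2. The log2 ratios were -0.76 and -0.50, with a mean of -0.63 ± 0.12 (SE, adjusted p = 0.00659). Fgf8 is a patterning signal of the early embryo and the nascent nephron. Its brightest probe, dim in both groups, gave a processed signal that was 32.5 in control and 61.0 in BIO on array 1, and 45.3 and 79.4 on array 2, and the log2 ratios of 0.48 and 0.53 averaged 0.51 ± 0.11 (SE, adjusted p = 0.0120). A second Fgf8 probe was well above background in BIO on both arrays and in control on neither, which makes its change a bound of at least 1.57-fold. It was measured only through the group in which it was brighter, so its direction adds no support to the rise. The third Fgf8 probe was not well above background in either group.

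Another 6 paracrine ligands were tested without passing. Fgf9, an epithelial ligand that also keeps nephron progenitors, came closest and gave log2 ratios of 0.34 and 0.27 with a mean of 0.31 (95% interval 0.056 to 0.56), with an adjusted p of 0.0784. Its relative Fgf20, well above background in control on 1 array only, gave log2 ratios of 0.35 and 0.25 with a mean of 0.30 (95% interval 0.048 to 0.55). In the Fgf8 subfamily, Fgf17 gave log2 ratios of -0.089 and 0.44 with a mean of 0.17 (95% interval -0.15 to 0.50), its arrays differing in sign and its interval including 0. The intervals of the next 3 ligands also include 0. Fgf18, known from bone and lung, gave log2 ratios of -0.16 and 0.032 with a mean of -0.061 (95% interval -0.32 to 0.20). Fgf1, a ligand that binds all FGF receptors, gave log2 ratios of -0.35 and -0.11 with a mean of -0.23 (95% interval -0.50 to 0.033). Fgf6, known from skeletal muscle, gave log2 ratios of 0.23 and 0.14 with a mean of 0.18 (95% interval -0.069 to 0.43). Fgf2, Fgf3, Fgf4 and Fgf16 were not well above background on both arrays of either group and were not tested, and of these 4 genes Fgf3 alone was well above background in any channel, in the control of 1 array.

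The endocrine ligands act at a distance with Klotho proteins as co-receptors. Fgf15, the gut hormone that limits bile acid synthesis, gave log2 ratios of -0.32 and 0.043 with a mean of -0.14 (95% interval -0.42 to 0.15). Fgf21, a liver hormone, was not tested, since it was well above background only in the control of 1 array. Fgf23, the bone hormone that lowers phosphate, gave log2 ratios of 0.16 and -0.26 with a mean of -0.049 (95% interval -0.35 to 0.25), from a probe that was well above background in all 4 channels. A second Fgf23 probe, on the same transcript, was not well above background in any channel. The detected probe begins with a CA repeat, printed in capitals, which mark a run of at least 20 bases made only of A and C or only of G and T. Over the whole array, 92.8% of 278 probes with such a run were well above background in all channels, against 68.6% of all 39429 probes. What the repeat adds to the signal of this probe was not tested. The detected probe lies at chr6:127030758-127030817 and the other at chr6:127031289-127031348, both on the plus strand.
Fgf23 probe 1: CCACACACACACACACACACAtacatgtaa
Fgf23 probe 2: tttagtgaaagcctccgctagcaggttgac

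The intracellular Fgf genes, Fgf11 to Fgf14, encode proteins that are not secreted and that bind voltage-gated sodium channels of neurons and muscle. On their brightest probes 3 of the 4 rose, beside 9.13% of all genes, but a dimmer probe of Fgf13 fell. Fgf12 had the highest log2 ratio of all 36 genes tested on the normexp values. The processed signal of its brightest probe was 167 in control and 415 in BIO on array 1, and 175 and 318 on array 2, with both BIO values above both control values. Its log2 ratios were 1.11 and 0.70 with a mean of 0.91 ± 0.13 (SE, adjusted p = 0.00187), a 1.87-fold rise that ranked 295 among all rises. The other 2 Fgf12 probes rose by 1.14 (adjusted p = 2.87e-04) and 0.57 (adjusted p = 0.00941). Fgf14 had processed signals of 70.2 in control and 164 in BIO on array 1, and 93.6 and 202 on array 2. Its arrays were nearly equal at 0.87 and 0.85, averaging 0.86 ± 0.11 (SE, adjusted p = 9.93e-04), and its other 2 probes rose by 0.62 and 0.50 (adjusted p = 0.00489 and 0.0127). Fgf11 gave log2 ratios of -0.51 and -0.14 with a mean of -0.32 (95% interval -0.61 to -0.032) on its brighter probe and log2 ratios of 0.11 and 0.053 with a mean of 0.084 (95% interval -0.17 to 0.33) on the other.

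Fgf13 could not be summed up in 1 direction. The brighter probe had processed signals of 210.5 in control and 384 in BIO on array 1, and 252 and 322 on array 2, with log2 ratios of 0.68 and 0.27 and a mean of 0.48 ± 0.13 (SE, adjusted p = 0.0315). The dimmer probe had processed signals of 41.9 in control and 30.8 in BIO on array 1, and 54.8 and 36.9 on array 2. On this probe Fgf13 fell, with -0.36 and -0.36 and a mean of -0.36 ± 0.11 (SE, adjusted p = 0.0444). Both probes carry the same transcript accession in the array's annotation but lie far apart on the minus strand of chromosome X, at chrX:56316415-56316474 and chrX:56504014-56504073. Averaged over its probes, Fgf13 had a log2 ratio of 0.057 (adjusted p = 0.747) and lost its call. The first 30 bases of the probes of Fgf13 and of the brightest probes of Fgf12 and Fgf14 identify what was read. The Fgf14 probe lies at chr14:124377957-124378016 on the minus strand, and for the Fgf12 probe the array's annotation gives chr16:28189673-28373012 on the minus strand, an interval longer than the 60 bases of the probe.
Fgf12 probe 1: atctctacagctcagatgtttttaccccag
Fgf14 probe 1: gctggagatgcaccttaaagatttcatgca
Fgf13 probe 1: aagaaggactgccaaattttctcatgatct
Fgf13 probe 2: attaaagaaaaaagagtccccctttcgtgc

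Of the 5 receptor genes, Fgfr1 passed the test. FGFR1 is a receptor found widely in mesenchyme, and the processed signal of its brightest probe was 12166 in control and 7686 in BIO on array 1, and 12789 and 8669.7 on array 2. The log2 ratios of -0.74 and -0.58 averaged -0.66 ± 0.11 (SE, adjusted p = 0.00427), a 1.58-fold fall in which both BIO signals lay below both control signals. Its other 2 probes were less even between the arrays. Probe 3, upstream of the first, gave -0.23 and -1.34 with a mean of -0.79 ± 0.22 (SE, adjusted p = 0.0367). Probe 2 gave log2 ratios of 0.52 and -0.34 with a mean of 0.088 (95% interval -0.34 to 0.51). In mm9 probe 1 lies at chr8:26685072-26685131 and probe 3 at chr8:26684061-26684120, both on the plus strand. Averaged over all 3 probes, the ratio was -0.45 with an adjusted p of 0.0521. The first 30 bases of the 2 Fgfr1 probes that fell are given to show where the transcript was read.
Fgfr1 probe 1: gagacgcccagggtagcatccgttgctata
Fgfr1 probe 3: agacctacgttcaagcagttggtggaagac

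The other 4 receptor genes did not pass the test. Fgfr2, whose epithelial form receives FGF7 and FGF10, gave log2 ratios of 0.20 and -0.023 with a mean of 0.089 (95% interval -0.17 to 0.35) on its brighter probe. Its second probe overlaps the first and gave log2 ratios of 0.21 and 0.023 with a mean of 0.11 (95% interval -0.14 to 0.37), so both read nearly the same stretch of the transcript. No fall of this receptor gene beside those of Fgf7 and Fgf10 was detected, but which forms of Fgfr2 these probes read was not analysed. Fgfr3, a receptor that restrains bone growth, gave log2 ratios of -0.025 and 0.050 with a mean of 0.013 (95% interval -0.24 to 0.26), and its 2 dimmer probes were not called either. Fgfr4, a receptor known from liver and muscle, gave log2 ratios of 0.13 and 0.094 with a mean of 0.11 (95% interval -0.14 to 0.36), and its second probe was not called. Fgfrl1, a receptor without a kinase domain that is needed for kidney formation, gave log2 ratios of 0.32 and 0.28 with a mean of 0.30 (95% interval 0.054 to 0.55), with an adjusted p of 0.0799.

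The adaptors link the receptors to RAS. Frs2 had processed signals of 5965 in control and 7856 in BIO on array 1, and 6649.7 and 8785 on array 2, and it rose with log2 ratios of 0.30 and 0.45 and a mean of 0.37 ± 0.11 (SE, adjusted p = 0.0436), close to the threshold. Frs3 gave log2 ratios of 0.031 and -0.034 with a mean of -0.0016 (95% interval -0.25 to 0.25).

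**Figure D3:**
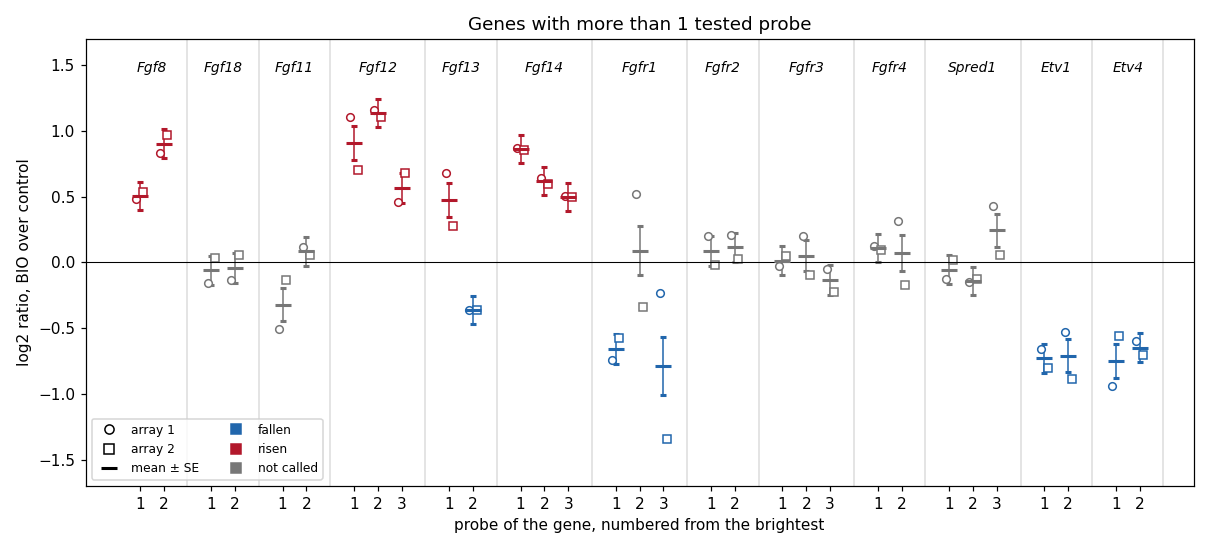
Log2 ratio of BIO over control for each tested probe of the 13 genes with more than 1, with array 1 as circles, array 2 as squares and the mean with its SE as a bar. All probes of Fgf12, Fgf14, Etv1 and Etv4 move together, the Fgf13 probes are called in opposite directions, and Fgfr1 probes 2 and 3 differ most between the arrays.

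Among the 13 genes with more than 1 tested probe, the called probes of a gene pointed the same way in Fgf12, Fgf14, Fgfr1, Etv1 and Etv4 and opposed each other only in Fgf13, leaving aside Fgf8, whose second probe could only be called upward. No probe of Fgf18, Fgf11, Fgfr2, Fgfr3, Fgfr4 or Spred1 was called. Spry4, Dusp6, Etv5, Etv1, Fgf7, Fgf10, Fgf5, Fgf12 and Fgf14 passed the test under every alternative computed from the scanner values. Of the other 10 called genes, Spry1, Dusp4, Etv4, Fgfr1, Spry2, Fgf13, Fgf22 and Frs2 missed the threshold when the processed signals were tested, with adjusted p between 0.0523 and 0.139 and no change of sign. Under median centering Fgf8, Spry3, Fgf13, Fgf22, Frs2, Fgfr1 and Spry2 missed it. With an offset of 16 Frs2 also missed it in limma (adjusted p = 0.0638). Over all 9 alternatives, the score table included, Fgf13 was called in 4 and Fgf22 in 5.

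**Figure D4:**
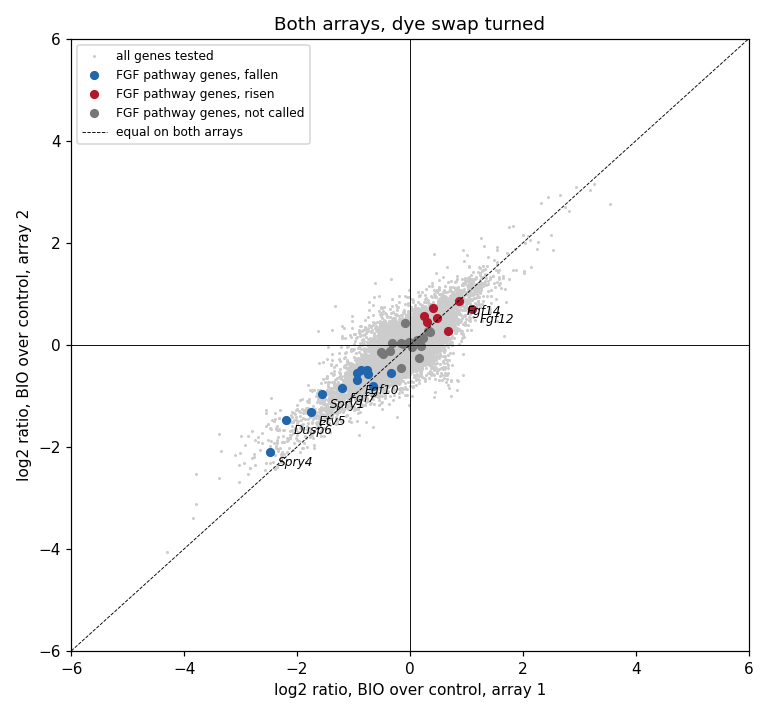
Log2 ratio of BIO over control on array 1 (x axis) against array 2 (y axis) for all 21574 genes tested in grey and the 36 FGF pathway genes in color. Every colored gene that was called lies in the lower left or upper right quadrant, and Spry4, Dusp6, Etv5 and Spry1 form the lower end of the pathway's genes.

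As a second description without a test, a gene was counted when its processed signals of control and BIO were 2-fold or more apart on each array, with the same sign, and reached 100 in the brighter channel. The study used an intensity and a fold limit of this kind for its other arrays, and the brighter channel was chosen here. Spry4, Dusp6 and Etv5 were lower by this count, beside 2.04% of all genes, and Fgf14 was higher, beside 1.04%. For Etv5 the ratios of processed signals were -1.78 and -1.30 on the log2 scale, for Dusp6 -2.18 and -1.45, and for Fgf14 1.22 and 1.11.

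The feedback genes can be set beside the rest of the cascade that they control. In a list of 27 genes from SHC1 and RAS to RAF, MEK, ERK and its kinases, 2 fell and 1 rose, with a median log2 ratio of -0.13, and this share of changed genes was below the 23.9% of all genes. Rps6ka3 and Rps6ka1, which encode kinases activated by ERK, fell by 0.63 and 0.41 on the log2 scale, and Gab1, an adaptor that recruits the phosphatase SHP2, rose by 0.38. In a list of 11 genes taken as other negative regulators, 4 fell and 0 rose, beside 14.8% and 9.13% of all genes. The median was -0.28, and not each of the 11, Lgals3 among them, is an established inhibitor. The deepest falls there were -0.82 for Rasa3, a RAS GTPase-activating protein, -0.61 for Lgals3, a carbohydrate-binding galectin, and -0.56 for Dusp1, a broad MAP kinase phosphatase. Il17rd, also called Sef, and Dusp5, Dusp7 and Dusp9 were not called. The lowest log2 ratio in these 2 lists was -0.82, and Spry4, Dusp6, Etv5 and Spry1 lay below it.

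FGF binding at the cell surface depends on heparan sulfate and other partners. Of 10 co-receptors and extracellular modulators tested, 3 fell, beside 14.8% of all genes. Of these, L1cam (-0.88) and Flrt1 (-0.68) encode adhesion proteins that can associate with FGF receptors. Fgfbp1 (-0.63) encodes a carrier that frees FGFs from the matrix. Klotho (Kl) was not called, and Klb was not well above background. Of 19 genes of heparan sulfate synthesis and editing, 5 fell and 1 rose, beside 14.8% and 9.13% of all genes. Sulf2 and Sulf1, the enzymes that strip sulfate from heparan sulfate outside the cell, fell by 0.90 and 0.57 on the log2 scale, and Hs6st1, a sulfotransferase, fell by 0.44. Ndst3, another sulfotransferase, rose by 0.46.

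ERK also receives signals from other receptors. Over all genes 14.8% fell and 9.13% rose. Of 12 further growth factor and receptor genes tested, 7 fell and 0 rose, with a median of -0.75 beside the -0.71 of the FGF feedback and ETV genes. Egfr, the receptor of epidermal growth factor, had -1.79, the neurotrophin receptor gene Ntrk2 had -1.60, and Kit, the receptor of stem cell factor, had -1.48. Ret, a receptor gene counted with the epithelial markers below and not here, had -1.46. Among 15 ETS factors outside the Etv1, Etv4 and Etv5 group, 7 fell and 1 rose. Ets1, a factor of endothelium and mesenchyme, had -1.52, and Ehf and Elf5, factors of epithelia, had -1.48 and -1.12, while Spdef rose by 0.37. Over all 94 genes tested in the 6 lists, 28 fell and 3 rose, beside the same shares of all genes, with a median of -0.18.

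Markers of several cell types moved together with these genes. The counts below stand beside 14.8% of all genes that fell and 9.13% that rose. All 8 endothelial markers fell, with a median log2 ratio of -1.71 and summed processed signals of 24278 and 28994 in control against 4489 and 8348 in BIO. Of 12 epithelial markers, 6 fell (median -0.58), with sums of 104882 and 106944 in control against 58404 and 69869 in BIO. Those that fell were Foxa1 (-2.17), Ret (-1.46), Krt19 (-1.24), Cdh1 (-1.04), Krt8 (-0.91) and Krt18 (-0.89). Epcam (0.023), Cldn7 (-0.064), Gata3 (-0.10), Cldn4 (-0.12), Grhl2 (-0.16) and Esrp1 (-0.27) were not called. Of 12 markers of ureteric mesenchyme, 8 fell and 1 rose (median -0.54), with sums of 313233 and 337507 in control against 206044 and 223437 in BIO. Beyond these, 6 of 8 macrophage markers, 4 of 9 Schwann cell precursor and neuronal markers, 4 of 7 erythroid markers and 3 of 10 kidney markers fell, and 1 kidney marker rose. The macrophage sums were 8443 and 9469.5 in control against 5439 and 7846 in BIO, and those of Schwann cell precursors and neurons were 39162 and 44082 in control against 28247 and 38516 in BIO. The erythroid sums were 181563 and 211892 in control against 130526 and 109092 in BIO, and those of the kidney markers were 30665 and 32177 in control against 26775 and 28054 in BIO. All 7 summed levels were lower in BIO on both arrays. A sum is carried by its brightest markers, such as Krt8 and Krt18 in the epithelial list, and need not hold for each marker. The part of these shifts in the falls of the Sprouty, Dusp, Etv and Fgf genes was not tested. Fgf12 and Fgf14 rose, whereas 4 of 9 Schwann cell precursor and neuronal markers fell and 0 rose. How these changes relate was not tested.

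**Figure D5:**
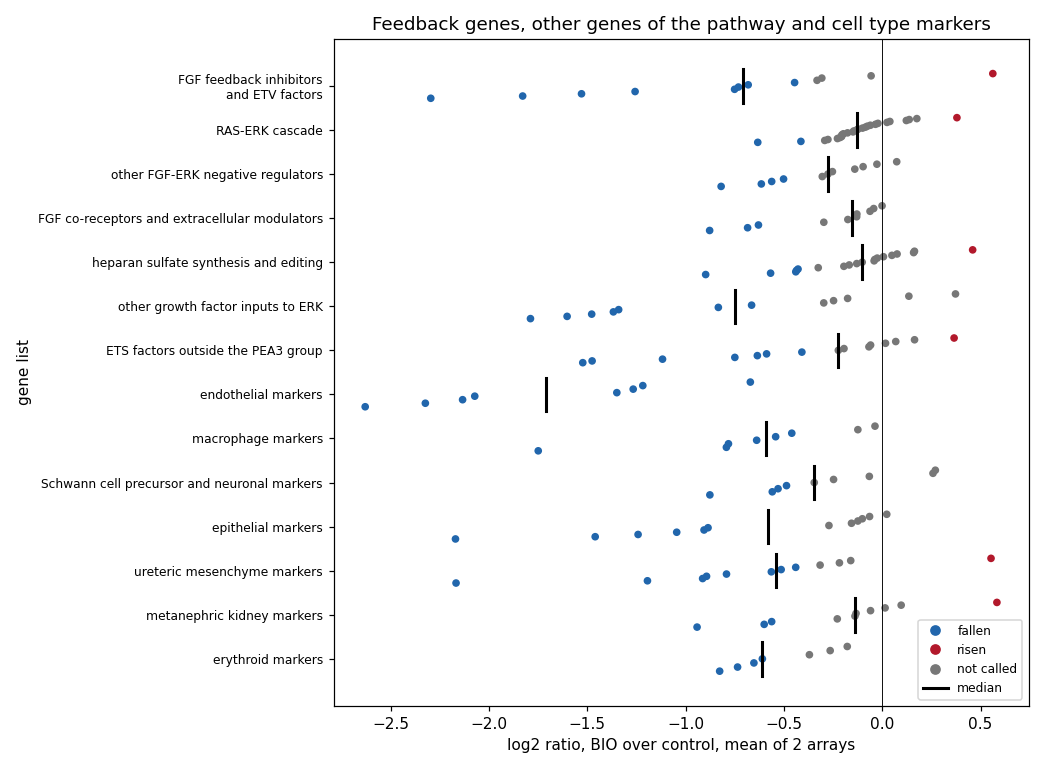
Log2 ratio of BIO over control, mean of 2 arrays (x axis), for each tested gene of the FGF feedback and ETV group, of 6 lists of other pathway genes and of 7 marker lists, with the list median as a black bar. The feedback and ETV genes have a median of -0.71, the RAS-ERK cascade stays near 0 and the endothelial markers lie lowest.

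Promoter sequence was searched for the letters of 3 motifs, on both strands of the 250 bases before each RefSeq start (GRCm38.p6), where 30 of the 41 genes had an entry with 39 starts in all. A WNT-related TCF/LEF core (CTTTGAT or CTTTGTT) was held by Fgf6 alone, and by 8.06% of all 32851 promoters. The ETS core CCGGAAG was held by Fgfrl1 and Frs2, and by 6.91% of all promoters. The AP-1 motif TGANTCA was held by 1 start each of Fgf12 and Fgf13, and by 6.75% of all promoters. Dusp6, Etv5, Spry1, Fgf7 and Fgf10 were not among the genes with these motifs. Which of the 41 genes had no entry is not listed here, and a missing entry would give the same absence.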

How the data were processed

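Ureter explants of wildtype NMRI mouse embryos were compared by 2-color arrays, BIO against DMSO, with 1 pool of ureters a group and array, 2 arrays and the dyes exchanged (BIO in red on array 1 and in green on array 2). Scanning and spot quantification with Feature Extraction 10.7.3.1 were done by the authors, per the file headers. The deposited tables hold mean spot intensities and local background intensities, neither corrected nor normalized, and processed signals, which Feature Extraction had background-subtracted and dye-normalized. A further table deposited by the authors holds a score for each probe on each array, with 1 decimal, whose making is not stated. It follows the signed fold change of BIO over control (Pearson r of 0.988 and 0.982 with the log2 ratio of the processed signals over probes), its median was 1 on both arrays, and its centering is unknown.

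Intensities were corrected by normexp with an offset of 50 and normalized by loess within each array with limma 3.58.1 in R 4.3.3. Control and outlier spots had weight 0 and were left out, and the 4 spots of a probe were averaged. Processed signals were averaged likewise and raised to a floor of 15. A probe was tested when over a share of 0.5 of its spots were well above background in the same group on both arrays (28824 probes), with lmFit and eBayes of the 2 turned ratios against 0, two-sided, and Benjamini-Hochberg adjustment over these probes. A term for the dye would leave no residual degree of freedom. SE and 95% intervals are the moderated ones, with n = 2 arrays throughout and a median SE of 0.111, and the number of arrays limits the precision. Each gene is represented by its brightest tested probe. Fold changes against a group at background are bounds, from channel values after loess and Aquantile normalization. Names come from RefSeq of GRCm38.p6 (28328 probes by accession, 3400 by symbol, 243 by synonym, 7458 with the array's name), which the array names of all 66 probes matched.

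The genes, the lists beside them and the rules were chosen with earlier results of these data known. All 41 genes are accounted for, and of each other pathway list the up to 3 strongest called falls and rises are named. Marker lists are given by counts and sums, and the epithelial markers are also named with their ratios. The sequence of 1 Fgfr1 probe is not reported here. The analysis was tested on simulated data in which a small part of the array, bright probes only, was changed. Dim probes and changes as broad as those found here were not covered. Alternatives were processed signals, an offset of 16, no background correction, median centering, no filter or a stricter filter on dim probes, outliers kept, the mean over probes, the score table, the rule of intensity and fold, and each array alone.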

Additional observations from a re-analysis of the deposited data

How the results depend on the processing

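Over 9 alternatives, the 36 genes kept their side of the threshold and, where called, their direction in 280 of 322 comparisons, lost a call in 37, gained one in 5 and reversed in 0. With processed signals 11 genes changed (4 rose, 7 fell), beside 19 (7 and 12), and 10 other pathway genes did, beside 31. Over all genes the share called was 8.91%, beside 23.9% (3.69% rose, 5.22% fell). With median centering 12 changed (2 rose) and the median over the genes was -0.15, beside 12.8% called and a median of -0.036 over all genes. The score table, 1 decimal only, gave 4 (4 rose, Fgf9, Fgf14, Fgfr4 and Frs2) and 0 falls in limma, with 7 falls and 7 rises at an unadjusted p under 0.05, and 9 other pathway genes. Over all genes it gave 1929 rises and 1319 falls, beside 1970 and 3184. The rule of intensity and fold, without a test, kept 4 (1 higher, 3 lower) and 7 other pathway genes. The causes were not tested. Fgf20 was called with an offset of 16 and without background correction (adjusted p = 0.0446 and 0.0313), and Spred3 only without it (0.0409). Both genes passed the brightness filter only through the group in which they were brighter, so the directions of these calls add no support. On 1 array alone the median over the genes was -0.14 (array 1) or -0.029 (array 2), with no test. The test is paired as it stands, since each ratio compares control and BIO on 1 array. A block for the slide was not run, since both arrays lay on 1 slide. For dim probes, such as those of Fgf8, Fgf22 and Spry3, the offset pulls ratios toward 0.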
